A study of Mus musculus with 4 samples.

Results

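The MYC and MAX network was followed in RNA of sorted alveolar type 1 (AT1) cells, the flat epithelial cells across which the lung exchanges gas. Its 10 genes, namely Myc, Mycn, Mycl, Max, Mxd1, Mxd3, Mxd4, Mxi1, Mnt and Mlx, were taken by symbol from the 23990 genes of the deposited tables. Each symbol had 1 entry in every library. Sox2-labelled libraries (n = 2) are labelled as from Scnn1a-Cre; Rosa[Sox2/+] mice, in which Cre switches on a Sox2 transgene. Control-labelled libraries (n = 2, titled WT) are labelled as from Scnn1a-Cre; Rosa[mTmG/+] mice, which carry a membrane reporter at the same locus. All animals were of a mixed B6 and 129 background, were 3 to 4 days old and carried the same Cre, driven by the sodium channel gene Scnn1a. Whether replicate libraries were made from different animals is not stated in the labels, so the spread behind each p-value may be technical.

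MYC proteins are transcription factors of growth and division that bind DNA only as dimers with MAX. They bind the E-box, a short DNA word found near many genes of ribosome building, metabolism and the cell cycle. MXD proteins, MXI1 (a member of the MXD family) and MNT compete for MAX and, with SIN3 corepressors, silence genes that MYC activates. MXD1 and MXD4 are generally found in cells that leave the cycle, and MXD3 in cells in S phase. MLX is a parallel partner that joins some MXD proteins, MNT and the nutrient-sensing MONDO factors. In the lung, Mycn is known for growth of the embryonic epithelium.

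Sox2, the transgene's own gene, went against the labels, at 1.41 and 1.99 FPKM in Sox2-labelled libraries and 302 and 477 FPKM in control-labelled ones. FPKM is fragments scaled to transcript length and to the mapped fragments of a library, so levels of different genes can be compared. Whether the labels of the groups were exchanged was not tested, so the genotype behind each group is not established here. Every direction below follows the labels as deposited and runs against the level of Sox2. Markers of AT1 cells were present in all libraries, and 7 of 8 were higher in Sox2-labelled libraries, with sums of 5653 to 6677 FPKM against 766 to 1224 FPKM. All 6 markers of cell division were lower there, with sums of 19.1 to 43.8 FPKM against 126 to 282 FPKM. Of 6 endothelial markers 2 were higher, with sums of 47.5 to 104 FPKM against 11.5 to 31.9 FPKM. None of 6 mesenchymal markers passed, with sums of 86.6 to 270 FPKM against 27.6 to 120 FPKM. All 6 markers of alveolar type 2 cells were higher, with sums of 16491 to 23656 FPKM against 906 to 5611 FPKM. Of 6 leukocyte markers 3 were expressed enough to be tested, and Lyz2, which type 2 cells express too, was higher. Ptprc and Cd68 did not pass. The pan-leukocyte gene Ptprc did not exceed 3.22 FPKM in any library. Cd68 stood at 10.8 and 3.05 FPKM in Sox2-labelled libraries, and 8.67 and 3.78 FPKM in control-labelled ones. None of 3 red cell markers passed, with sums of 123 to 669 FPKM against 46.5 to 199 FPKM. No marker on any of these lists was at exactly 0 in any library. The lowest, the red cell gene Hbb-bs, stood at 0.00282 and 0.00525 FPKM in Sox2-labelled libraries and 0.00238 and 7.01 FPKM in control-labelled ones. The part these cells had in the differences below was not tested.

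All 10 network genes reached the mean of 1 FPKM needed for testing. In Sox2-labelled libraries, Mycl and Myc were lower, none of the 10 was higher and 8 did not pass. At an unadjusted p under 0.05 there were 3, these and Mxd3, all lower. Of all 12040 tested genes, 3558 had an unadjusted p under 0.05. A gene passed at a Benjamini-Hochberg adjusted p under 0.05 in limma, a linear model fitted over 12040 genes. Over all those genes 8.11% were lower and 4.2% were higher by the same rule. The groups did not overlap in 8 of the 10, 6 with Sox2-labelled libraries lower and 2 with them higher. Over all tested genes the groups did not overlap in 58.1%, with Sox2-labelled libraries lower in 42.5% and higher in 15.7%. The median log2 difference of the 10 was -0.28 and that of all tested genes -0.29. Differences are given on the log2(FPKM + 1) scale, Sox2-labelled minus control-labelled. This scale understates the change of low genes.

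**Figure D1:**
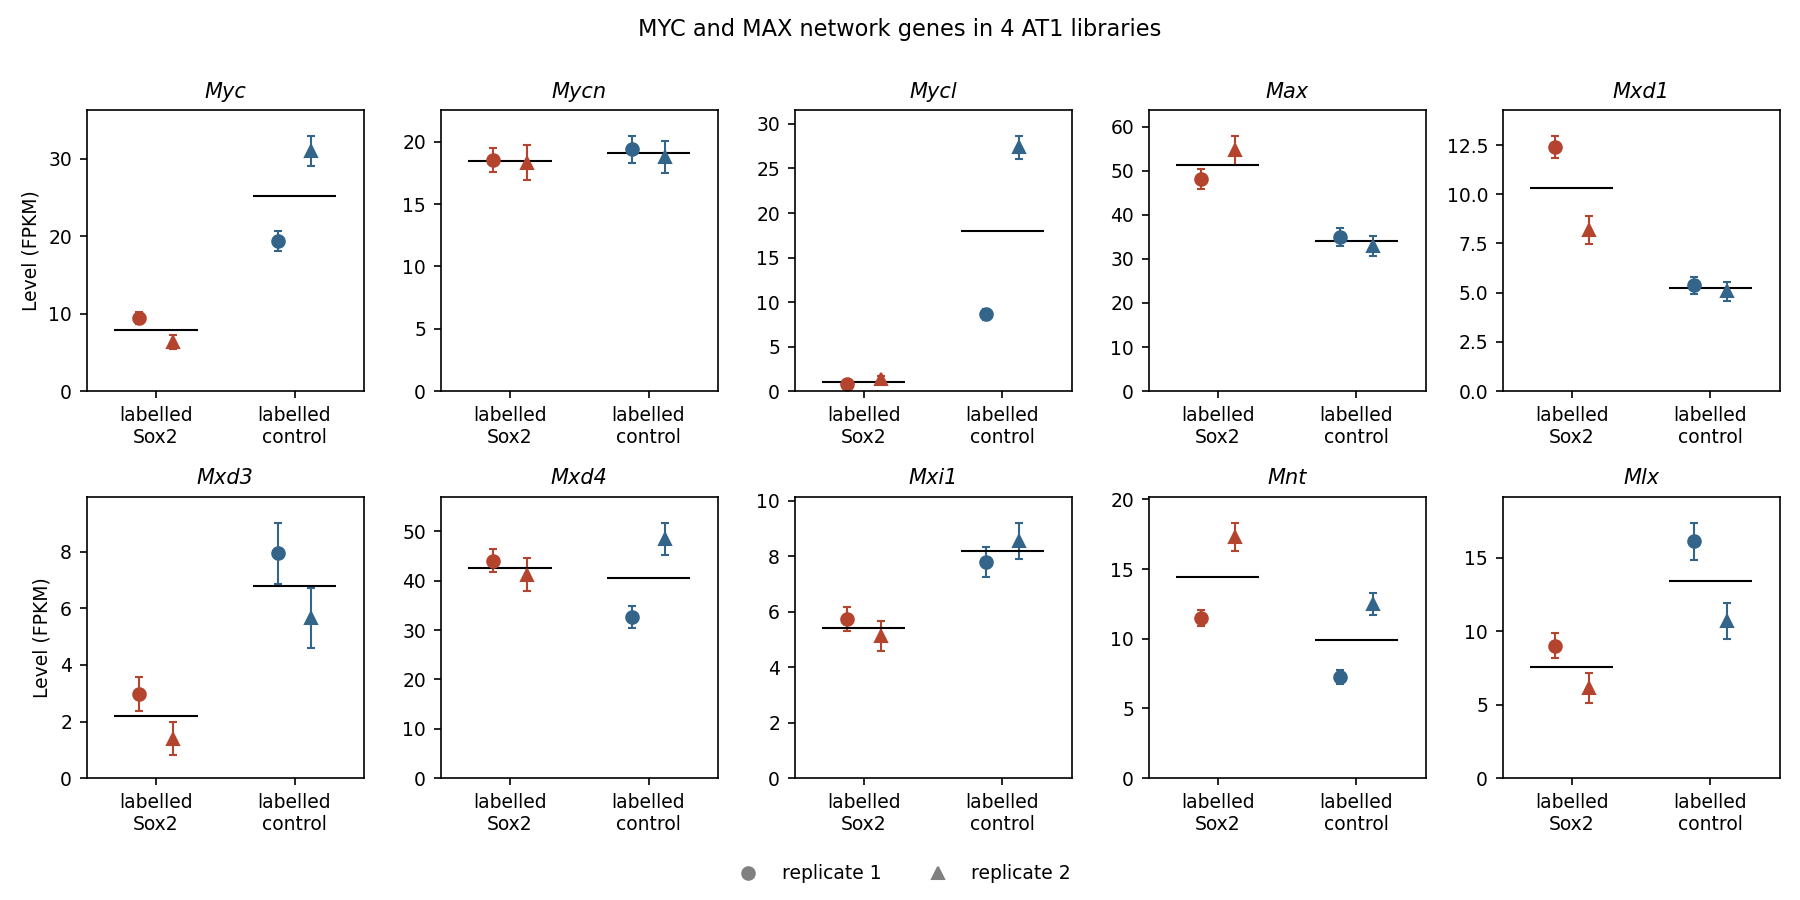
Level of each network gene in FPKM (vertical axes, starting at 0) in the 2 Sox2-labelled libraries (red, left) and the 2 labelled control (blue, right); points are libraries, error bars the deposited bounds, black lines group means. Mycl stood at 0.789 and 1.37 FPKM in Sox2-labelled libraries, against 8.62 and 27.4 FPKM in control-labelled ones, and Mycn between 18.3 and 19.4 FPKM in all 4.

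Mycl, the MYC paralog named after lung cancer, had the largest difference of the network. It is listed on chromosome 4 from 122996099 to 123002480 (mm10). Its level was 0.789 and 1.37 FPKM in Sox2-labelled libraries, with deposited bounds of 0.619 to 0.958 and 1.03 to 1.70 FPKM, and 8.62 and 27.4 FPKM in control-labelled libraries, with bounds of 8.00 to 9.23 and 26.1 to 28.7 FPKM. The groups were far apart, and control-labelled libraries differed more from each other than their bounds. The means were 1.08 ± 0.408 and 18.0 ± 13.3 FPKM (SD, n = 2 each), 16.7-fold lower in Sox2-labelled libraries. On the log2 scale this was -3.01 (SE 0.51, limma adjusted p = 0.00480). The ratio of means was 25.4-fold without control-labelled replicate 1 and 8.00-fold without control-labelled replicate 2. With 1 library left out the log2 difference ran from -3.79 to -2.23. Each such fit, here and below, has 1 library in a group, so the spread of that group does not enter it. In bulk RNA, fewer cells of a type and less RNA per cell cannot be told apart, here and in all values below.

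Myc itself, the general growth regulator, was lower in Sox2-labelled libraries as well. The gene lies on chromosome 15 from 61985341 to 61990361. It stood at 9.46 and 6.37 FPKM in Sox2-labelled libraries, against 19.4 and 31.1 FPKM in control-labelled ones. Each Sox2-labelled library was below each control-labelled one. The means were 7.92 ± 2.19 and 25.3 ± 8.22 FPKM (SD, n = 2 each), 3.19-fold lower in Sox2-labelled libraries, or -1.54 on the log2 scale (SE 0.38, limma adjusted p = 0.0241). The call was less firm than that of Mycl. Adjusted p in limma was 0.0656 without Sox2-labelled replicate 1, 0.248 without Sox2-labelled replicate 2 and 0.107 without control-labelled replicate 2, with Myc lower in each of these fits. It was 0.0708 after median-of-ratios rescaling and 0.0605 after quantile normalization, which bring the libraries to a common scale.

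Mycn, the paralog of the embryonic lung epithelium, hardly varied between libraries. It lies on chromosome 12 from 12936093 to 12941836. It stood at 18.6 and 18.3 FPKM in Sox2-labelled libraries, and 19.4 and 18.8 FPKM in control-labelled ones. The log2 difference was -0.05, with a 95% interval of -0.76 to 0.66 (limma adjusted p = 0.939). Its sign was positive after either rescaling (0.29 and 0.26, adjusted p = 0.481 and 0.480). The interval leaves room for a change of over 1.5 times in either direction.

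The makeup of the MYC family, which does not depend on how a library is scaled, did not overlap between the labels. Mycn made up 64.4% and 70.3% of the summed Myc, Mycn and Mycl level in Sox2-labelled libraries, against 40.9% and 24.3% in control-labelled ones. Mycl made up 2.74% and 5.24% in Sox2-labelled libraries, against 18.2% and 35.4%. Myc made up 32.9% and 24.5% in Sox2-labelled libraries, against 41.0% and 40.2%. Mycn was the most abundant of the 3 in both Sox2-labelled libraries. In control-labelled replicate 1, Myc and Mycn were level within their bounds, and in control-labelled replicate 2 both Myc and Mycl were above Mycn. The summed level was 28.8 and 26.0 FPKM in Sox2-labelled libraries and 47.5 and 77.3 FPKM in control-labelled ones. With 2 against 2 libraries an exact permutation test cannot give a p below 0.333, so no test of these sums is given.

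Max, the shared partner, was the most abundant member in 3 of the 4 libraries and ranked after Mxd4 in control-labelled replicate 2. The gene lies on chromosome 12 from 76937269 to 76962248. Its level was 48.1 and 54.6 FPKM in Sox2-labelled libraries, against 35.0 and 32.9 FPKM in control-labelled ones. Both Sox2-labelled libraries were above both control-labelled ones, and the deposited bounds of the groups did not meet. The means were 51.4 ± 4.62 and 34.0 ± 1.47 FPKM (SD, n = 2 each). The log2 difference of 0.58 (95% interval -0.09 to 1.25) did not pass in limma (adjusted p = 0.230), nor after median-of-ratios rescaling (0.93, adjusted p = 0.0838) or quantile normalization (0.90, 0.0578). The summed MYC level per unit of Max was 0.599 and 0.477 in Sox2-labelled libraries, against 1.36 and 2.35 in control-labelled ones.

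None of the 5 antagonists of MYC passed the threshold. Their summed level was 76.7 and 73.3 FPKM in Sox2-labelled libraries and 61.0 and 80.3 FPKM in control-labelled ones, and the groups overlapped. Mxd4 supplied 57.5% and 56.3% of it in Sox2-labelled libraries, and 53.5% and 60.4% in control-labelled ones. Among the 5, the log2 difference of Mxd1 was 0.83 and that of Mxd3 was -1.32.

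Mxd1, a repressor linked to cell cycle exit, lies on chromosome 6 from 86647045 to 86669159. It stood at 12.4 and 8.18 FPKM in Sox2-labelled libraries, against 5.38 and 5.06 FPKM in control-labelled ones. The groups did not overlap, and Mxd1 was the least abundant of the 10 in both control-labelled libraries. The log2 difference of 0.83 (SE 0.38) did not pass in limma (adjusted p = 0.170). It passed after median-of-ratios rescaling (1.14, adjusted p = 0.0298) and quantile normalization (1.12, 0.0320).

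Mxd3, the member associated with dividing cells, lies on chromosome 13 from 55325168 to 55329730. It stood at 2.97 and 1.40 FPKM in Sox2-labelled libraries, against 7.94 and 5.65 FPKM in control-labelled ones. The groups did not overlap, and within each label Mxd3 was higher in replicate 1. Mki67, a marker of cycling cells, had the same order, as did the mesenchymal gene Col1a1 and the endothelial gene Pecam1. Mycl had the reverse order under each label. Mki67 stood at 8.74 and 5.55 FPKM in Sox2-labelled libraries and 44.2 and 18.0 FPKM in control-labelled ones, and the part of cycling cells in the level of Mxd3 was not tested. The log2 difference of -1.32 (SE 0.42) narrowly missed the threshold in limma (adjusted p = 0.0635). It passed after quantile normalization (-1.11, 0.0342) and with a robust variance model (adjusted p = 0.0380). The end of Mxd3 overlaps 105 bases of Prelid1 on the other strand, a gene at 85.3 and 72.3 FPKM in Sox2-labelled libraries and 144 and 139 FPKM in control-labelled ones. The strand setting is not given in the sources used here, so fragments of the shared stretch may count for either gene. Mxd1 was 4.17 and 5.86 times as abundant as Mxd3 in Sox2-labelled libraries, against 0.677 and 0.896 times in control-labelled ones.

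Mxd4, Mxi1 and Mnt are the remaining antagonists. Mxd4 (chromosome 5, 34176580 to 34187710) stood at 44.1 and 41.2 FPKM in Sox2-labelled libraries, and 32.6 and 48.5 FPKM in control-labelled ones. The values of Sox2-labelled libraries fell between control-labelled ones (log2 difference 0.10, SE 0.32, limma adjusted p = 0.878). Mxi1 (chromosome 19, 53310506 to 53375810) has 3 listed transcription starts and stood at 5.74 and 5.12 FPKM in Sox2-labelled libraries, against 7.81 and 8.55 FPKM in control-labelled ones. Its groups did not overlap, but the difference of -0.51 (SE 0.37) did not pass (limma adjusted p = 0.385). Mnt (chromosome 11, 74830924 to 74845725), a MAX partner found in both resting and cycling cells, stood at 11.5 and 17.3 FPKM in Sox2-labelled libraries, and 7.25 and 12.5 FPKM in control-labelled ones. The groups of Mnt overlapped, and replicate 2 was higher than replicate 1 under each label (log2 difference 0.52, SE 0.39, limma adjusted p = 0.411).

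Mlx, the parallel partner, lies on chromosome 11 from 101087290 to 101092207. It stood at 9.01 and 6.12 FPKM in Sox2-labelled libraries, against 16.1 and 10.7 FPKM in control-labelled ones. Both Sox2-labelled values were below control-labelled ones. The log2 difference of -0.74 (95% interval -1.58 to 0.10) did not pass (limma adjusted p = 0.221). Mlx shares 385 bases with Psmc3ip on the other strand, a gene at 2.66 and 3.22 FPKM in Sox2-labelled libraries and 10.7 and 7.16 FPKM in control-labelled ones. Per unit of Max, Mlx stood at 0.187 and 0.112 in Sox2-labelled libraries, against 0.460 and 0.324 in control-labelled ones.

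**Figure D2:**
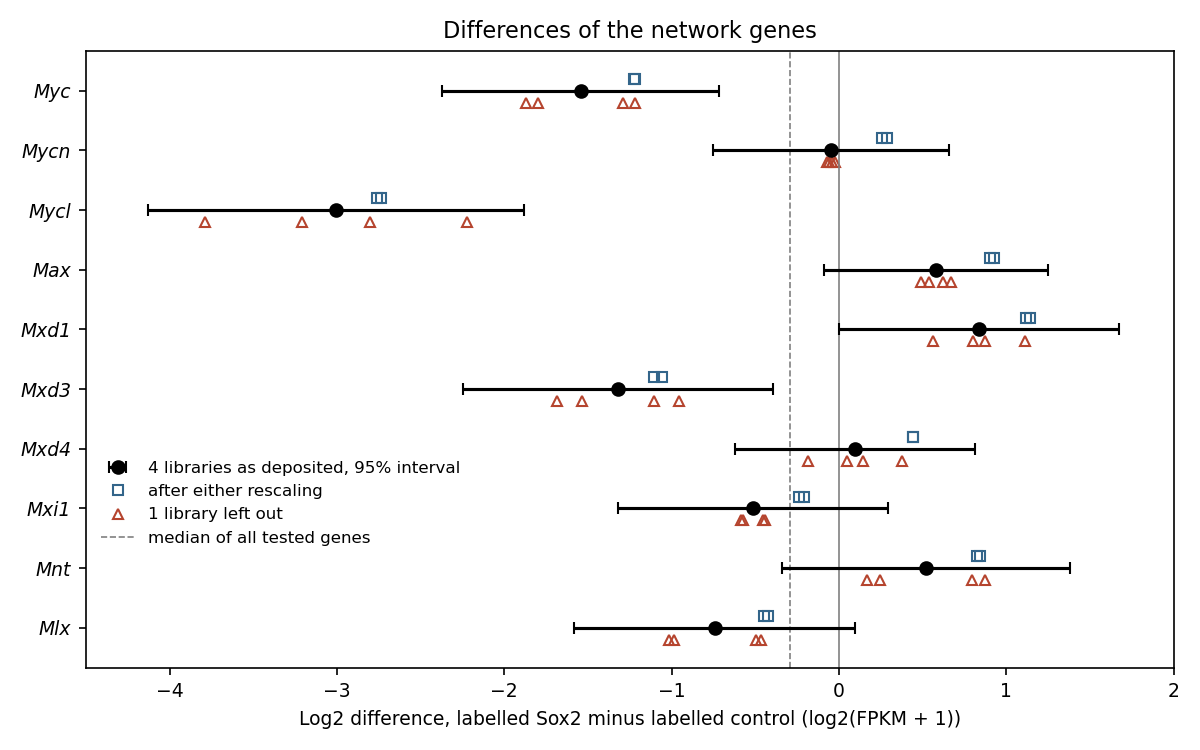
Log2 difference of each network gene, Sox2-labelled minus control-labelled, on the log2(FPKM + 1) scale (horizontal axis); black points with bars are the values from all 4 libraries with 95% intervals, squares the values after either rescaling and triangles those with 1 library left out. Mycl (-3.01) and Myc (-1.54) lie furthest to the left, while the triangles of Mxd4 fall on both sides of 0.

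As a ratio within each library, which does not depend on its scaling, the summed level of the 3 MYC genes over that of the 5 antagonists was 0.376 and 0.355 in Sox2-labelled libraries and 0.778 and 0.962 in control-labelled ones. The means were 0.366 ± 0.0143 and 0.870 ± 0.130 (SD, n = 2 each). The ratio was 2.38-fold lower in Sox2-labelled libraries. Myc over Mxd1 was 0.763 and 0.779 in Sox2-labelled libraries, against 3.62 and 6.14 in control-labelled ones. These ratios compare RNA levels, not proteins or dimers.

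**Figure D3:**
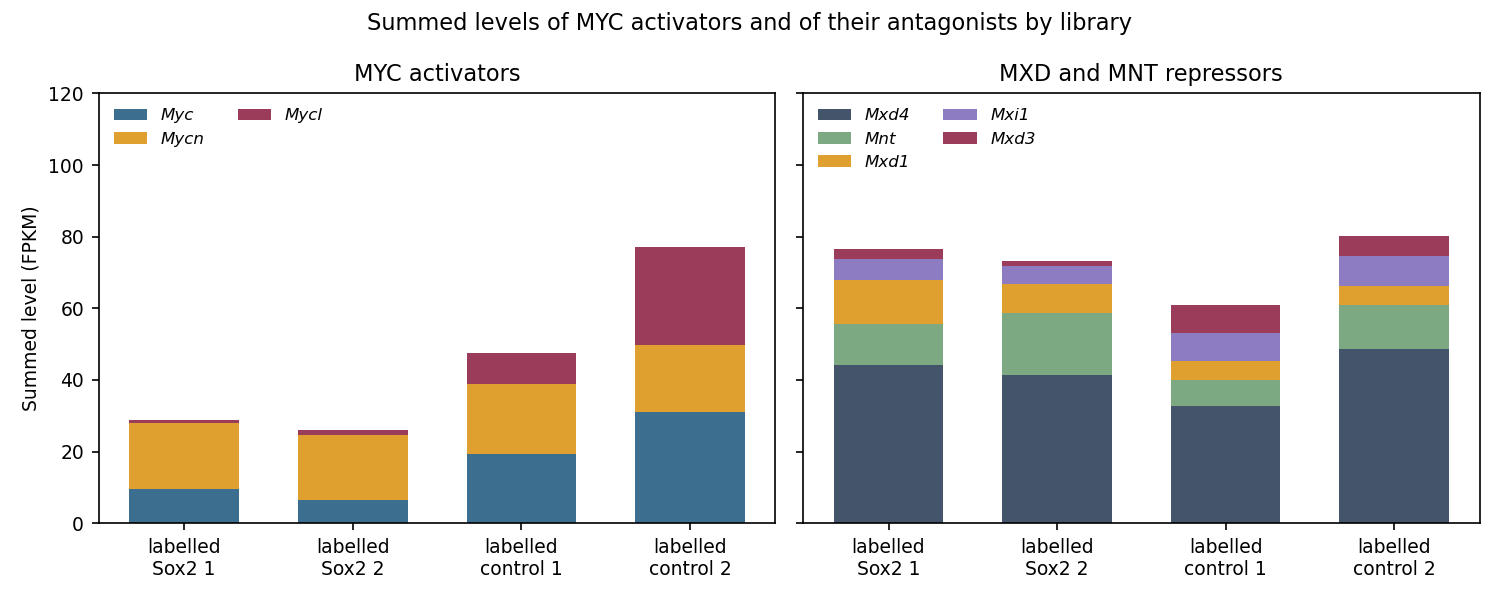
Summed FPKM (vertical axis, from 0) of the 3 MYC genes (left panel) and the 5 antagonists (right panel) in each of the 4 libraries, stacked by gene. The MYC sum was 28.8 and 26.0 FPKM in Sox2-labelled libraries and 47.5 and 77.3 FPKM in control-labelled ones, while the antagonist sums overlapped between labels.

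Promoter sequences of 9 of the 10 genes were matched in RefSeq (GRCm38.p6), each from 250 bases before to 50 bases after a start. Myc had no matched promoter there and was not searched. The E-box CACGTG, which reads the same on both strands, was found in 4 of the 9 genes, namely Max, Mxd4, Mnt and Mlx. It was found in 7.15% of the 32851 promoters of that length, a share of promoters and not of genes. The 9 genes had 11 such promoters, 3 of them of Mxi1. The word CATTGT, which reads as ACAATG on the other strand, is a core that SOX proteins bind. It was found in Mycl alone among the 9, and in 12.6% of all promoters. No E-box overlapped this word. The windows of 60 bases around these words are shown because the E-box is the binding word of the network itself and because Mycl differed most between labels. Capitals mark the word.
Mycl, chr4:122995913-122995972, plus strand: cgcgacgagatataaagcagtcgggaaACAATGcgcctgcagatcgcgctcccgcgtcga
Max, chr12:76962219-76962278, minus strand: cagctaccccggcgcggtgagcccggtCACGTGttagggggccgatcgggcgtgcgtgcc
Mxd4, chr5:34187897-34187956, minus strand: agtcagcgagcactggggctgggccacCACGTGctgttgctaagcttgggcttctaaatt
Mnt, chr11:74830774-74830833, plus strand: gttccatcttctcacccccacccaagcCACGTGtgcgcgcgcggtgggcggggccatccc
Mlx, chr11:101087223-101087282, plus strand: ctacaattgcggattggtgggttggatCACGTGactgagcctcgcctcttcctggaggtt
The E-box of Max began 3 bases before the start, that of Mlx 40, that of Mnt 123 and that of Mxd4 219 bases before it. The word in Mycl began at base 10 after the RefSeq start, which lies 168 bases before the first base of Mycl in the authors' tables. A match is a description of these letters and not a bound site. None of the 4 genes with an E-box in this window passed the threshold.

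Genes around the network were taken from 10 lists of textbook MYC cofactors, regulators and targets, 149 genes in all, of which 144 were tested. Together 29 were lower and 2 were higher in Sox2-labelled libraries and 113 did not pass, with a median log2 difference of -0.91 against -0.29 over all tested genes. Over all tested genes, to which this count and those of the single lists compare, 8.11% were lower and 4.2% were higher. The count of lower genes was 4 without Sox2-labelled replicate 2 and 67 without control-labelled replicate 2.

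Of the 14 coactivators of MYC, 2 were lower, none was higher and 12 did not pass, with a median of -0.43. Kat2a, an acetyltransferase that MYC recruits to chromatin, stood at 6.85 and 3.55 FPKM in Sox2-labelled libraries, against 19.4 and 16.4 FPKM (log2 difference -1.66, SE 0.39, limma adjusted p = 0.0211). Wdr5, a chromatin protein that anchors MYC, stood at 11.0 and 8.75 FPKM there, against 26.0 and 25.6 FPKM (-1.31, limma adjusted p = 0.0289). Both calls were lost without Sox2-labelled replicate 2 (adjusted p = 0.260 and 0.262), and that of Wdr5 also without Sox2-labelled replicate 1 (0.0929) or control-labelled replicate 2 (0.0544). No coactivator passed without Sox2-labelled replicate 2, 1 did without Sox2-labelled replicate 1, and 4 did without control-labelled replicate 2.

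Of the 12 corepressors that MXD proteins and MNT use, 2 were lower, none was higher and 10 did not pass, with a median of -0.78. Sap30, a subunit of the SIN3 histone deacetylase complex, stood at 5.86 and 3.90 FPKM in Sox2-labelled libraries, against 120 and 76.6 FPKM in control-labelled ones. Its log2 difference of -4.06 (SE 0.36, limma adjusted p = 2.42e-04) was larger in size than that of Mycl. The difference of Sap30 ran from -4.38 to -3.74 with 1 library left out. Rbbp4, a histone-binding subunit of the same complex, had a difference of -1.24 (limma adjusted p = 0.0438). That call was lost without Sox2-labelled replicate 1 (adjusted p = 0.0641), Sox2-labelled replicate 2 (0.363) or control-labelled replicate 1 (0.105), after the rescalings (0.0524 and 0.0561) and with a variance model without trend (0.0694). Leaving out any of these 3 libraries left 1 lower gene on the list, and leaving out control-labelled replicate 2 gave 4. The scaffold Sin3a stood at 9.67 and 8.73 FPKM in Sox2-labelled libraries and 11.6 and 6.88 FPKM in control-labelled ones (0.03, limma adjusted p = 0.964).

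Of 20 genes of MYC turnover, 3 were lower, none was higher and 17 did not pass, with a median of -0.57. Fbxo32, a ubiquitin ligase subunit, stood at 1.43 and 0.765 FPKM in Sox2-labelled libraries, against 5.81 and 19.7 FPKM (-2.52, SE 0.52, limma adjusted p = 0.0119). Set, a phosphatase inhibitor, stood at 66.2 and 47.6 FPKM there, against 184 and 141 FPKM (-1.51, limma adjusted p = 0.0136), and the deubiquitinase Usp22 had a difference of -1.21 (0.0286). Fbxw7, the ligase best known for marking MYC for destruction, stood at 5.51 and 3.81 FPKM in Sox2-labelled libraries, and 4.79 and 4.58 FPKM in control-labelled ones (-0.02, limma adjusted p = 0.975). None of the 3 calls held without Sox2-labelled replicate 2 (adjusted p = 0.145 to 0.197). Fbxo32 also missed the threshold without Sox2-labelled replicate 1 (0.0522) and after the rescalings (0.0531 and 0.0533), and its difference was -3.32 without control-labelled replicate 1 and -1.72 without control-labelled replicate 2. Usp22 missed it without Sox2-labelled replicate 1 and without control-labelled replicate 1. With all libraries, Usp22 missed it after median-of-ratios rescaling (limma adjusted p = 0.0672) and without the variance trend (0.0518). The list then had 1 lower gene without Sox2-labelled replicate 1, 2 without control-labelled replicate 1 and 6 without control-labelled replicate 2.

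Textbook targets that MYC activates were lower in Sox2-labelled libraries or did not pass, apart from Slc1a5. Of 30 nucleolar genes of ribosome building, 5 were lower, none was higher and 25 did not pass, and all 30 had a difference below 0 and 29 one below the median of all tested genes (list median -1.08). Grwd1, a ribosome assembly factor, stood at 2.96 and 1.70 FPKM in Sox2-labelled libraries, against 16.8 and 12.2 FPKM (-2.23, SE 0.40, limma adjusted p = 0.00618). Fbl, the methyltransferase fibrillarin, stood at 25.6 and 21.5 FPKM there, against 95.7 and 80.8 FPKM (-1.86, limma adjusted p = 0.00422). Nop16 (-1.96) and the histone chaperone Npm1 (-1.61) were lower too. Npm1 has processed copies elsewhere in the genome, so how its fragments were assigned is uncertain. Without Sox2-labelled replicate 2 no nucleolar gene passed (adjusted p = 0.0624 for Fbl, 0.109 for Grwd1, 0.131 for Nop16 and 0.333 for Npm1). Npm1 also missed the threshold without Sox2-labelled replicate 1 (0.0508) or control-labelled replicate 1 (-0.94, 0.127), after the rescalings (0.0856 and 0.0988), at a filter of 5 FPKM (0.0544), without the variance trend (0.0655) and with the robust variance model (0.0567). Its difference was -2.29 without control-labelled replicate 2. The list had 3 lower genes without Sox2-labelled replicate 1 and 18 without control-labelled replicate 2.

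Of 24 targets of metabolism and nucleotide supply, 6 were lower, 1 was higher and 17 did not pass (median -1.04). Phgdh, the first enzyme of serine synthesis, stood at 12.3 and 8.63 FPKM in Sox2-labelled libraries, against 85.8 and 49.1 FPKM (-2.54, SE 0.37, limma adjusted p = 0.00218). Shmt1 (-2.50) and Shmt2 (-1.55), which pass carbon from serine to folate, and the spermidine synthase Srm (-1.92) were lower as well. The glutamine carrier Slc1a5, higher by 1.45 (limma adjusted p = 0.0119), stands outside the naming rule and was chosen after its value was seen. It was at 113 and 99.3 FPKM in Sox2-labelled libraries, against 37.3 and 39.0 FPKM, and no gene of the list was higher without Sox2-labelled replicate 1 or 2. Odc1, the ornithine decarboxylase long used as a MYC target, did not pass (-1.01, limma adjusted p = 0.119) and was also chosen after its value was seen. Without Sox2-labelled replicate 2 only 1 lower gene of this list passed, Phgdh (adjusted p = 0.0387), while Shmt1 (0.0538), Srm (0.194) and Shmt2 (0.244) missed the threshold. Without control-labelled replicate 2 there were 14.

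Of 16 targets of translation and growth, 7 were lower, none was higher and 9 did not pass (median -1.16). The nuclear transport genes Rcc1 (-1.83) and Ran (-1.76), the chaperonin Hspd1 (-1.64) and the translation factor Eif5a (-1.46) had the largest differences that the naming rule selects. Eif5a stood at 208 and 163 FPKM in Sox2-labelled libraries, against 569 and 454 FPKM (SE 0.32, limma adjusted p = 0.0154). Ran, Hspd1 and Eif5a have processed copies elsewhere, so their fragment assignment is uncertain. Without Sox2-labelled replicate 2 none of the 16 passed (adjusted p = 0.136 to 0.389 for these 4, with Hspd1 at -1.02). Hspd1 also missed the threshold without control-labelled replicate 1 (-1.02). With all libraries, its limma adjusted p was 0.0882 and 0.104 after the rescalings and 0.0608 at a filter of 5 FPKM. The adjusted p in limma was 0.0715 without the variance trend and 0.0856 with the robust variance model. The difference of Hspd1 was -2.26 without Sox2-labelled replicate 1 and -2.25 without control-labelled replicate 2. The list had 4 lower genes without control-labelled replicate 1 or after median-of-ratios rescaling, and 15 without control-labelled replicate 2.

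Of 9 tested targets of the cell cycle, 4 were lower, none was higher and 5 did not pass (median -1.59). Ccnd1, a D cyclin that starts the cycle, stood at 25.7 and 18.7 FPKM in Sox2-labelled libraries, against 143 and 144 FPKM (-2.65, SE 0.31, limma adjusted p = 7.96e-04). Cks2 (-2.11), a kinase subunit, Ccnd2 (-1.84) and Cdk4 (-1.65), the kinase of the D cyclins, were lower too. The calls of Ccnd1 and Ccnd2 held with any library left out, and those of Cks2 (adjusted p = 0.104) and Cdk4 (0.162) were lost without Sox2-labelled replicate 2. After median-of-ratios rescaling Ccnd2 missed the threshold (0.0686). The markers of cell division given above were also lower in Sox2-labelled libraries. Within each label their sum, Cks2 and Cdk4 were higher in replicate 1, while Ccnd2 was higher in replicate 2. Ccnd1 was higher in replicate 1 only among Sox2-labelled libraries. The part of dividing cells in these differences was not tested.

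Of 12 tested genes that MYC represses or that act in that repression, only Cdkn2b was higher, with none lower and 11 that did not pass (median 0.41). This gene, an inhibitor of Cdk4 that MYC silences through the factor MIZ1, stood at 84.9 and 131 FPKM in Sox2-labelled libraries, against 45.1 and 44.2 FPKM (1.22, SE 0.32, limma adjusted p = 0.0335). The call was lost without Sox2-labelled replicate 1 (0.0513) or 2 (0.317), which left no higher gene on the list, and with a variance model without trend (0.0620). There were 2 without control-labelled replicate 1 and 4 after either rescaling. Cdkn1a, another inhibitor that MYC represses, stood at 75.1 and 61.4 FPKM there, against 104 and 107 FPKM, and did not pass (-0.63, limma adjusted p = 0.193). It was chosen after its value was seen, like Sin3a and Fbxw7.

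The MLX side of the network gave no calls. Mlxip, which encodes MONDOA, stood at 8.19 and 6.61 FPKM in Sox2-labelled libraries, and 10.3 and 11.3 FPKM in control-labelled ones (-0.50, limma adjusted p = 0.390). Mga, which joins MAX, stood at 5.26 and 4.55 FPKM in Sox2-labelled libraries, and 5.42 and 3.15 FPKM in control-labelled ones (0.19, 0.799). Mlxipl was too low to be tested, at no more than 0.793 FPKM in any library. None of 5 tested MLX and MONDOA targets passed in limma (median -0.03), and 1 of them, lower, had an unadjusted p under 0.05. Over all tested genes 3558 of 12040 had such a p. Txnip, the classic MONDOA target, stood at 156 and 150 FPKM in Sox2-labelled libraries, and 67.3 and 188 FPKM in control-labelled ones, with the groups overlapping. Txnip was called higher without control-labelled replicate 2 (adjusted p = 0.0419), and its difference was -0.30 without control-labelled replicate 1. Arrdc4, an arrestin-like target chosen after its values were seen, was called lower without control-labelled replicate 1 (-2.06, adjusted p = 2.54e-04) and did not pass with all 4 libraries (-1.18, 0.148).

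**Figure D4:**
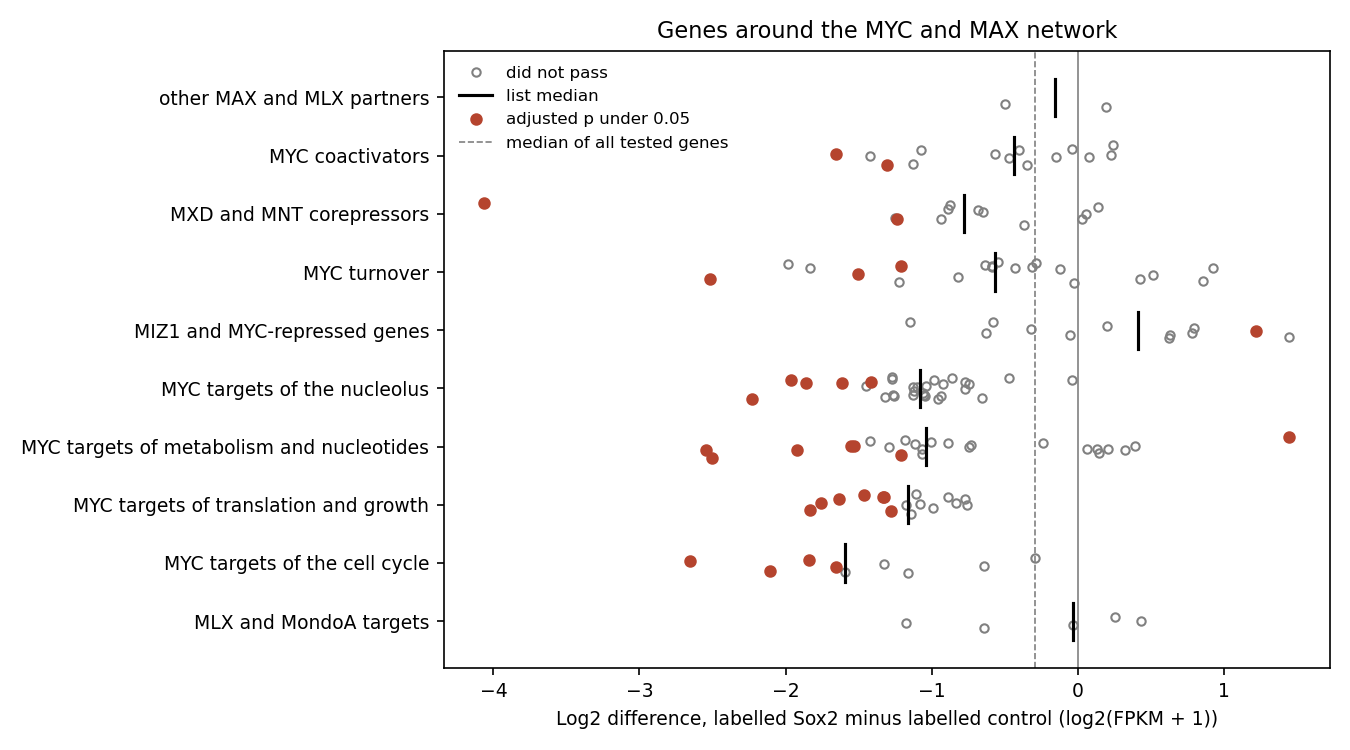
Log2 difference of each tested gene of the 10 lists, Sox2-labelled minus control-labelled, on the log2(FPKM + 1) scale (horizontal axis, 1 row per list, vertical scatter within a row for legibility); red points passed at an adjusted p under 0.05 and black bars are list medians. All 30 nucleolar genes lie below 0, 29 of them below the median of all tested genes (dashed line), and Sap30 (-4.06) is the point furthest to the left.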

How the data were processed

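The submitters' processing notes name mm10 and the tools Bowtie2, TopHat2, Cuffdiff and Cufflinks. Their versions, the gene models and whether strand was used: not given in the sources used here. The authors deposited 4 tables of FPKM for each gene, with low and high confidence bounds, per the file headers. Another table, with 2 group columns that no label ties to a group, was not used. Read counts were not used here and absolute depth is unknown: implied fragments of low values were whole within 0.1 for 70.9% to 72.6% of them, so counts were not rebuilt. The bounds of genes at 1 FPKM or more had a median half-width of 7.96% and 12.4% of the value in Sox2-labelled libraries and 7.82% and 9.93% in control-labelled ones.

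Entries of a symbol were added (267 genes), and Rn45s, marked as failed, was left out. Those averaging 1 FPKM or more over the 4 libraries (12040) were tested on log2(FPKM + 1) with limma 3.58.1 in R 4.3.3 (eBayes with trend, two-sided, Benjamini-Hochberg over all tested genes). The step was tested on simulated data. Gene starts were shifted to count from 1, and overlapping genes were read from GENCODE M21 (GRCm38). The naming rule takes all members, Sox2 and, from each list, up to 4 genes past the threshold with the largest difference, or, if none passed, its 2 most abundant. Members and lists were chosen with earlier results of these data known. Alternatives were a pseudocount of 0.1, no filter, a filter at 5 FPKM, either rescaling, other variance models, a replicate block and each library left out.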

Additional observations from a re-analysis of the deposited data

How the results depend on the processing

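Over all genes, 506 were higher and 976 lower in Sox2-labelled libraries, 34.1% higher among those called. Median-of-ratios rescaling gave 964 higher and 686 lower and quantile normalization 980 and 827, or 58.4% and 54.2% higher, and moved the median of all genes from -0.29 to 0.00 and -0.04. With no filter limma called 0 higher and 3 lower, against 3869 genes at an unadjusted p under 0.05, and no pathway list gene (0 in either direction). Mycl (-3.01, adjusted p = 0.102) and Myc (-1.54, 0.117) then missed the threshold. With 1 library left out the counts ran from 119 to 837 higher and from 115 to 1312 lower. Pathway list genes ran from 0 to 3 higher and from 4 to 67 lower. After median-of-ratios rescaling 6 list genes were higher and 23 lower, and after quantile normalization 7 and 28.

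Myc kept its direction under every alternative run and missed the threshold after median-of-ratios rescaling (-1.22) and quantile normalization (-1.22), and with 1 library left out its values ran from -1.87 to -1.22. Mycl ran from -3.79 to -2.23 in those fits. Mxd1 passed after the rescalings (1.14 and 1.12), and Mxd3 after quantile normalization (-1.11) and with the robust variance model (-1.32). Mxd3 could not be tested at a filter of 5 FPKM. Reversed signs were those of Mycn after the rescalings (0.29 and 0.26) and of Mxd4, which ran from -0.18 to 0.38 with 1 library left out. The difference in summed antagonists ran from -5.32 to 14.0 FPKM. Mga ran from -0.12 to 0.51, Txnip from -0.30 to 1.17 and Arrdc3 from -0.17 to 0.67. Of 24 named list genes past the threshold, 4 passed with any library left out, 18 after both rescalings, 19 without the variance trend, 22 at a filter of 5 FPKM and 22 with the robust variance model. The cause of these changes was not tested.

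Same-numbered libraries deviated from their group means with a correlation of 0.234 over genes. With 2 pairs and no label that ties the numbers, whether they share more than a number cannot be told. With the replicate block 1142 genes were higher and 2730 lower, 5 and 78 of them on the pathway lists, and Mxd1 (0.83, adjusted p = 0.0410), Mxd3 (-1.32, 0.0116) and Mlx (-0.74, 0.0411) passed. Absolute depth is unknown, and values near 1 FPKM, such as those of Mycl and Mxd3 in Sox2-labelled libraries, had the widest bounds.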
